A study of Mus musculus with 12 samples.

Results

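The nuclear genes of the respiratory chain were followed through 12 ATAC-seq peak lists from mouse bone marrow-derived macrophages (BMDMs). Members were all autosomal RefSeq protein-coding genes whose symbol begins with Nduf, Uqcr, Atp5 or Cox4 to Cox8, together with Sdha, Sdhb, Sdhc and Sdhd. The rule found 93 of 20661 genes: 39 for complex I, 8 for assembly factors of complex I, 4 for complex II, 8 for complex III, 17 for complex IV and 17 for complex V. ATAC-seq maps open chromatin by letting a transposase insert sequencing adapters where DNA is accessible. In each deposited list, a gene was scored by its boundary peak, the highest-scoring peak whose summit (or centre, where no summit is given) lay within 1 kb of the gene's start or end.

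The study compared cells knocked out (KO) for Baf60a, a SWI/SNF chromatin remodelling subunit encoded by Smarcd1, with wild-type (WT) cells. Each genotype was exposed to oxidised low-density lipoprotein (oxLDL, 50 µg/ml for 48 h), a lipid load taken up by macrophages, or left untreated. In the ApoE KO cohort all mice lacked ApoE and carried floxed Baf60a, and KO and WT cells differed by the presence of Lyz2 Cre, which is driven from a myeloid gene. That cohort had 2 libraries each of KO with oxLDL, KO untreated, WT with oxLDL and WT untreated cells, made from cryopreserved BMDMs. The other cohort, called the first cohort, held a single library of each of these 4 kinds, and its labels give neither ApoE status nor how the KO was made. Its cells were fresh and processed by Omni-ATAC, while the ApoE KO cohort used Nextera ATAC, another protocol. Protocol and cell storage cannot be told apart from any other difference between the cohorts. No label says that replicates came from separate mice, so the p-values below measure only the spread between these libraries, which may be technical.

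ApoE KO lists held 24397 to 44524 autosomal peaks and first-cohort lists 80394 to 138132, and the read depth behind them is unknown. Levels were therefore read within a cohort, as the score percentile of the boundary peak after each list was reduced to its top-scoring 24397 (ApoE KO) or 80394 (first cohort) peaks, with 0 for a gene without a peak. A value of 90 means that the peak scored above 90% of the peaks of that shortened list. Smarcd1 itself had a boundary peak in all 8 ApoE KO and all 4 first-cohort lists. Because such a peak need not overlap the deleted part, it checks nothing about the knockout. Of 10 macrophage markers, 7 to 10 had a boundary peak in ApoE KO libraries and all 10 in first-cohort libraries. None of 6 B cell markers had one in the ApoE KO lists, against 1 to 5 in the first-cohort lists. Of 8 T cell markers, 1 to 3 had one in ApoE KO lists and 3 to 5 in first-cohort lists. Of 8 neutrophil markers, 1 to 2 and 3 to 4 had one. Over all genes, 44.6 to 52.1% had one in ApoE KO lists and 59.2 to 66.1% in the longer first-cohort lists. A promoter was known for 7 T cell, 8 neutrophil and 2 B cell markers. No library had a peak over 7, 6 and 1 of these. In full first-cohort lists, boundary peaks had median percentiles of 16.6 to 30.6 (B cell), 66.8 to 74.2 (T cell) and 71.2 to 92.7 (neutrophil). All genes with a peak had 85.2 to 86.1 there. The part of B cells, T cells or neutrophils in the values below was not tested. In a peak list, a promoter open in fewer cells and a promoter less open in every cell cannot be told apart.

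The respiratory chain makes most of the ATP of a resting cell. Complex I (NADH dehydrogenase), complex II (succinate dehydrogenase), complex III (cytochrome bc1) and complex IV (cytochrome c oxidase) pass electrons to oxygen, and complex V (ATP synthase) uses the proton gradient that complexes I, III and IV build. In macrophages the balance of oxidative phosphorylation and glycolysis is known to differ between inflammatory and alternative activation. Most subunits are made from housekeeping promoters in the nucleus, many of which are known targets of NRF1, of ETS factors such as GABP, and of YY1.

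Promoters that show the main patterns are printed here (RefSeq promoter table, GRCm38.p6, the mm10 assembly; 250 bases before to 50 after the start, read 5′ to 3′ on the gene's strand). Capitals mark exact matches to an NRF1 (GCGCA and GCGC with any base between), ETS (CCGGAAG) or YY1 (AAGATGGC) core on either strand. The first encodes an assembly factor that modifies complex I and had the smallest p for oxLDL (chr2:140170396-140170695, plus strand); its NRF1 match begins 16 bases after the start.
Ndufaf5: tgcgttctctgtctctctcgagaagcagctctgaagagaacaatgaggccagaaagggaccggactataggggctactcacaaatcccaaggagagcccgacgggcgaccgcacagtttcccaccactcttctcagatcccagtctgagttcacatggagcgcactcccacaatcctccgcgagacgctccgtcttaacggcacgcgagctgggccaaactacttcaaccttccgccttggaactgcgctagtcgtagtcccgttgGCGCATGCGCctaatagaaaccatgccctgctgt
The second encodes the membrane anchor of complex II and had the steadiest peak of its complex (chr9:50603800-50604099, minus strand).
Sdhd: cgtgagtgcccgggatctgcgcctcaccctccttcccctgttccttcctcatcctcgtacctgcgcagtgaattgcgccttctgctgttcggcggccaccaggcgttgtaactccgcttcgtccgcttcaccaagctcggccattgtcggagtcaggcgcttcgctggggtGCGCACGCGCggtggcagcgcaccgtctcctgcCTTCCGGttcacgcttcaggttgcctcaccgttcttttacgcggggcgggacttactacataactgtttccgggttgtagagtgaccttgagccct
The third encodes a complex I subunit and had the smallest p for genotype (chr6:126849095-126849394, minus strand).
Ndufa9: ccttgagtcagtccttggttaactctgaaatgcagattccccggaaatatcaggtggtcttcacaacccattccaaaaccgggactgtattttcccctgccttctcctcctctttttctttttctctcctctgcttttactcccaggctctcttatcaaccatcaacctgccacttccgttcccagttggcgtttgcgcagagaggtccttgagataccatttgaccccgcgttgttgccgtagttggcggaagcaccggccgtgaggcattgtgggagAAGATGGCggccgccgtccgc
The fourth encodes the hinge protein of complex III, whose boundary peak was counted in 1 cohort alone (chr4:116075021-116075320, minus strand).
Uqcrh: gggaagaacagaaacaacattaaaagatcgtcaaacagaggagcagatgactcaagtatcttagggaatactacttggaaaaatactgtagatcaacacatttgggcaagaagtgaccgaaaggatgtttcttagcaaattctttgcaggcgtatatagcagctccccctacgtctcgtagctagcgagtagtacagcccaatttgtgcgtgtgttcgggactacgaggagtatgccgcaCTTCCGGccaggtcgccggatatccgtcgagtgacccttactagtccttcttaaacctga
The last 2 are complex IV genes without a boundary peak in any library. Of these, Cox7a2 has a start deep inside its annotated span (chr9:79759804-79760103, minus strand), and Cox8b is a muscle isoform whose promoter window had no peak (chr7:140900397-140900696, minus strand).
Cox7a2: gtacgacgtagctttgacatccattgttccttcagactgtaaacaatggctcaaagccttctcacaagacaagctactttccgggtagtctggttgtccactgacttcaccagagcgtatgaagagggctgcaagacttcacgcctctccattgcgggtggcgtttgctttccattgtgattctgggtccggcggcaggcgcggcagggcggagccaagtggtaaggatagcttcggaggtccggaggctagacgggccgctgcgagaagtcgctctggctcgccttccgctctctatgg
Cox8b: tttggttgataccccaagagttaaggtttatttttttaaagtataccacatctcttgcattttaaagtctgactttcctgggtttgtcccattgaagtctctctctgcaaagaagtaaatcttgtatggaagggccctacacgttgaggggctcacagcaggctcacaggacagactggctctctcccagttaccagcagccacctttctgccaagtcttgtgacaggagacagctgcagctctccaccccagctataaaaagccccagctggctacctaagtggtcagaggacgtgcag

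Respiratory chain genes were mostly open in every library. A boundary peak stood at 69 of the 93 genes (74.2%) in all 12 full lists, against 8146 of 20661 autosomal protein-coding genes (39.4%). Another 18 members had one in some libraries and 6 in none. Per library, 76 to 79 members (81.7 to 84.9%) had one in the ApoE KO cohort and 82 to 86 (88.2 to 92.5%) in the first cohort, while all genes reached 44.6 to 52.1% and 59.2 to 66.1%. Mitochondrial ribosomal protein genes were alike in this, with 57 of 78 (73.1%) open in all 12 libraries, and cytosolic ribosomal protein genes stood at 65 of 73 (89.0%). All 7 core subunits of complex I encoded in the nucleus had a boundary peak in 12 of 12 libraries. By complex, the count was 32 of 39 for complex I, 7 of 8 for its assembly factors, 4 of 4 for complex II, 6 of 8 for complex III, 7 of 17 for complex IV and 13 of 17 for complex V.

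**Figure D1:**
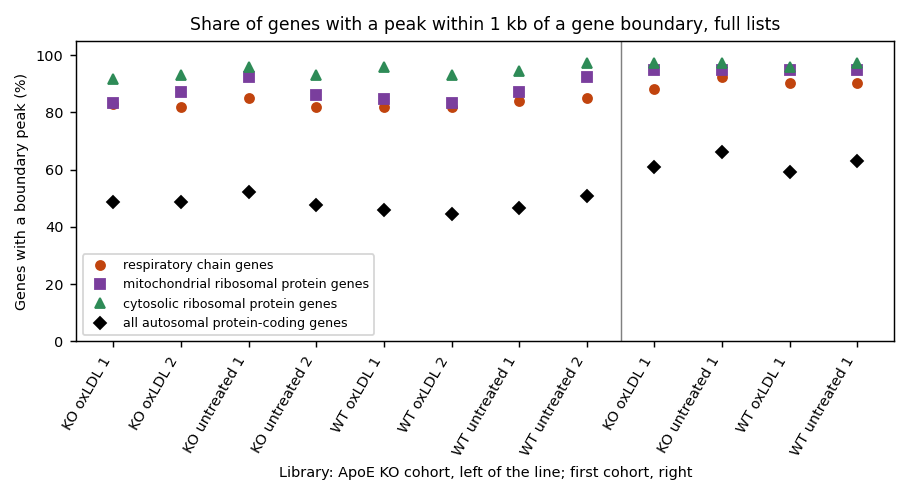
Percent of genes (y axis) that had a boundary peak in each full list (x axis), for 4 gene groups, with the ApoE KO cohort left of the line. Respiratory chain genes sit at 81.7 to 92.5% and all genes at 44.6 to 66.1%.

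Several subunits of complex IV exist as tissue isoforms, and most of these lacked a boundary peak in most libraries. Of 7 isoform genes known for restricted use, Cox7a1, the heart and skeletal muscle form, was the 1 gene with a boundary peak in all 12 libraries, at percentiles of 16.6 to 55.3 in the ApoE KO cohort and 91.8 to 93.6 in the first cohort. Cox8b (heart and muscle), Cox8c and Cox7b2 (testis) had none in any library. Cox6a2 (heart and muscle), Cox4i2 (lung, induced by low oxygen) and Cox6b2 (testis) had none in the 8 ApoE KO libraries, while 4, 2 and 3 of the 4 first-cohort libraries had one. Their first-cohort percentiles were 27.0 to 41.6 for Cox6a2, 0 to 8.48 for Cox4i2 and 0 to 8.64 for Cox6b2. The Cox6a2 peak was also within 1 kb of a boundary of Itgad in 4 of 4 libraries. The same held for the Cox6b2 peak and Fam71e2 in 3 of 3, so neither can be assigned to the isoform alone. The common forms differed from these isoforms: Cox6a1 was called in 11 of 12 libraries and Cox4i1, Cox6b1 and Cox8a in 12 of 12. The Cox4i1 peak was likewise shared with a neighbour, Emc8 or Gm27021, in 12 of 12. In complex I, Ndufa4l2, a hypoxia-induced paralogue of Ndufa4, had boundary peaks in the first cohort alone, at 4.56 to 26.7. These were also within 1 kb of a boundary of Stac3 in 4 of 4 libraries. Ndufb4b and Ndufb4c, loci related in name to Ndufb4, had none.

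Another 4 members had few or no boundary peaks although a peak covered the promoter. In the promoter table, Cox7a2, Cox5a, Atp5d and Atp5g3 start over 1 kb inside the outer boundary of the gene (4 of 75 members with a promoter, 5.33%, against 1646 of 16456 genes). A peak overlapped the promoter window of each in all 12 libraries. At Cox7a2, the common partner of Cox7a1, this peak reached percentiles of 87.7 to 96.5 in the ApoE KO cohort and 98.3 to 98.6 in the first cohort, with summits within 50 bp of the start in the ApoE KO lists. At Cox5a, a structural subunit of complex IV, the values were 37.8 to 81.7 and 76.7 to 88.4. Atp5g3, which encodes the same mature c subunit of the ATP synthase rotor as Atp5g1 and Atp5g2, had 66.5 to 83.8 and 88.9 to 90.6. Atp5d, the delta subunit of the rotor stalk, had 18.7 to 77.0 and 76.6 to 90.7. With promoter windows in place of boundaries, a measure added after the data were seen, 61 of 75 members (81.3%) were open in all 12 libraries, against 6771 of 16456 genes (41.1%), and 3 members in none.

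Uqcrh and Uqcr11, both small subunits of complex III, split the cohorts in opposite ways. Uqcrh had a boundary peak in 8 of 8 ApoE KO libraries, at percentiles of 77.7 to 94.7, and in 0 of 4 first-cohort libraries. A peak 2549 to 3040 bp wide nevertheless overlapped its start in each first-cohort library, with centres 1095 to 1281 bp away on the side of Lrrc41, so the missing calls at Uqcrh follow from using the centre. Uqcr11 had first-cohort percentiles of 83.8 in KO and 89.5 in WT cells with oxLDL, and 83.7 in KO and 88.1 in WT cells untreated. In the ApoE KO cohort, Uqcr11 was called in 2 of 8 libraries, KO with oxLDL replicate 1 and WT untreated replicate 2, by peaks of 114 and 155 bp. Calls were likewise fewer in the ApoE KO cohort at Ndufaf1 (4 of 8 libraries), an early assembly factor, and the complex I accessory subunits Ndufb10 (4 of 8) and Ndufc2 (5 of 8), each called in 4 of 4 first-cohort libraries. The remaining 6 partly called members (Atp5k, Cox6a1, Atp5j2, Ndufa3, Cox6c and Ndufa7) each missed 1 ApoE KO library.

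**Figure D2:**
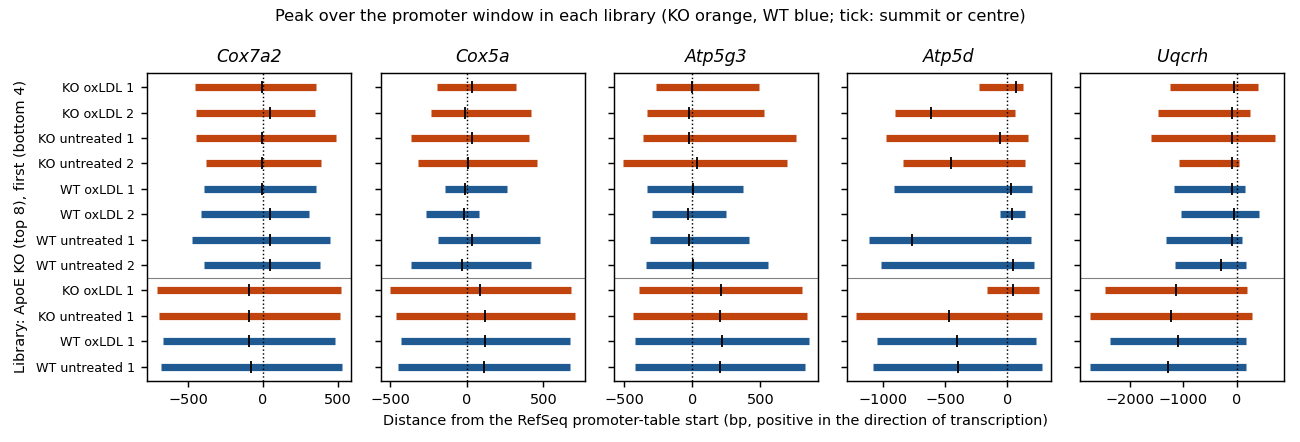
Peak over the promoter window (bars) and its summit or centre (ticks) in each library (rows), by distance in bp from the promoter-table start (x axis, positive in the direction of transcription), with KO in orange and WT in blue. All 12 libraries have a peak at each of the 5 genes, and at Uqcrh the first-cohort centres lie 1095 to 1281 bp upstream.

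Peak scores spread widely within each complex. Over the 8 ApoE KO libraries, the mean percentile of a member that could be tested had a median of 76.4 for complex I assembly factors, 62.0 for complex I, 70.8 for complex II, 79.0 for complex III, 46.2 for complex IV and 69.0 for complex V. These medians depend on the boundary rule. Complex IV leaves out Cox7a2 and Cox5a, with promoter-window means of 92.8 and 60.9, and counts Cox6a2 at 0. Complex V leaves out Atp5g3 (promoter window 77.1) and counts Atp5d at 0 (promoter window 50.1). Complex I counts Ndufa4l2 at 0. The medians therefore do not rank the complexes by promoter openness. Ndufa4, named for complex I and since placed in complex IV, had the highest level, 99.4 ± 0.34 (SD over 8 libraries of 4 groups), with a median fold enrichment of 11.9 in the authors' peak calls. The next was Atp5j, coupling factor 6 of the ATP synthase, at 99.1 ± 0.50. These highest 2 overlapped in range, 98.9 to 99.9 and 98.5 to 99.7. Others near the top were Ndufb5 at 96.5 ± 1.55, Ndufab1, the mitochondrial acyl carrier protein, at 95.9 ± 1.34, and Cox7c, a small structural subunit of complex IV, at 95.5 ± 2.51. Uqcrc2, a core protein of complex III, led its complex at 93.4 ± 1.90, and Ndufaf4 led the assembly factors at 92.9 ± 2.47.

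The lowest called member of each complex, and of the assembly factors, lay far below. Outside complex II these were Ndufc2 at 8.30 ± 14.4, Ndufaf1 at 2.61 ± 7.14, Uqcr11 at 0.18 ± 0.50, Cox6c at 12.8 ± 19.7 and Atp5k, the e subunit that helps ATP synthase form dimers, at 10.98 ± 13.4. For these the SD exceeded the mean, because some libraries were at 0. On the separate scale of the first cohort, the same genes ranged from 47.7 to 53.5 (Cox6c) up to 83.7 to 89.5 (Uqcr11). Ndufs3, a core subunit, had 4.46 to 35.9 in ApoE KO libraries and 89.2 to 93.7 in first-cohort libraries. Percentiles from lists of such different length are not on 1 scale, so these values give no difference between the cohorts.

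All 4 genes of complex II, which also belongs to the citric acid cycle, were called in 12 of 12 libraries. Sdhd was steady at 74.5 to 83.9 in the ApoE KO cohort. Its partner in the membrane, Sdhc, ranged from 9.33 to 61.3. The catalytic subunits Sdha (54.3 to 91.9) and Sdhb (45.3 to 89.0) overlapped both, while the highest Sdhc value was below the lowest Sdhd value in that cohort.

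The median level of called members was above that of all called genes within each first-cohort library. The ranges over libraries, 84.1 to 90.01 and 78.9 to 85.9, overlapped. Mitochondrial ribosomal protein genes had 85.8 to 89.5 there, cytosolic ones 80.5 to 88.9, and the 48 other chain genes described below 91.1 to 93.3. In the ApoE KO cohort the ranges were 66.1 to 77.1 for members and 70.0 to 74.1 for all genes, which overlap. Members were above all genes in some libraries of that cohort and below in others.

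**Figure D3:**
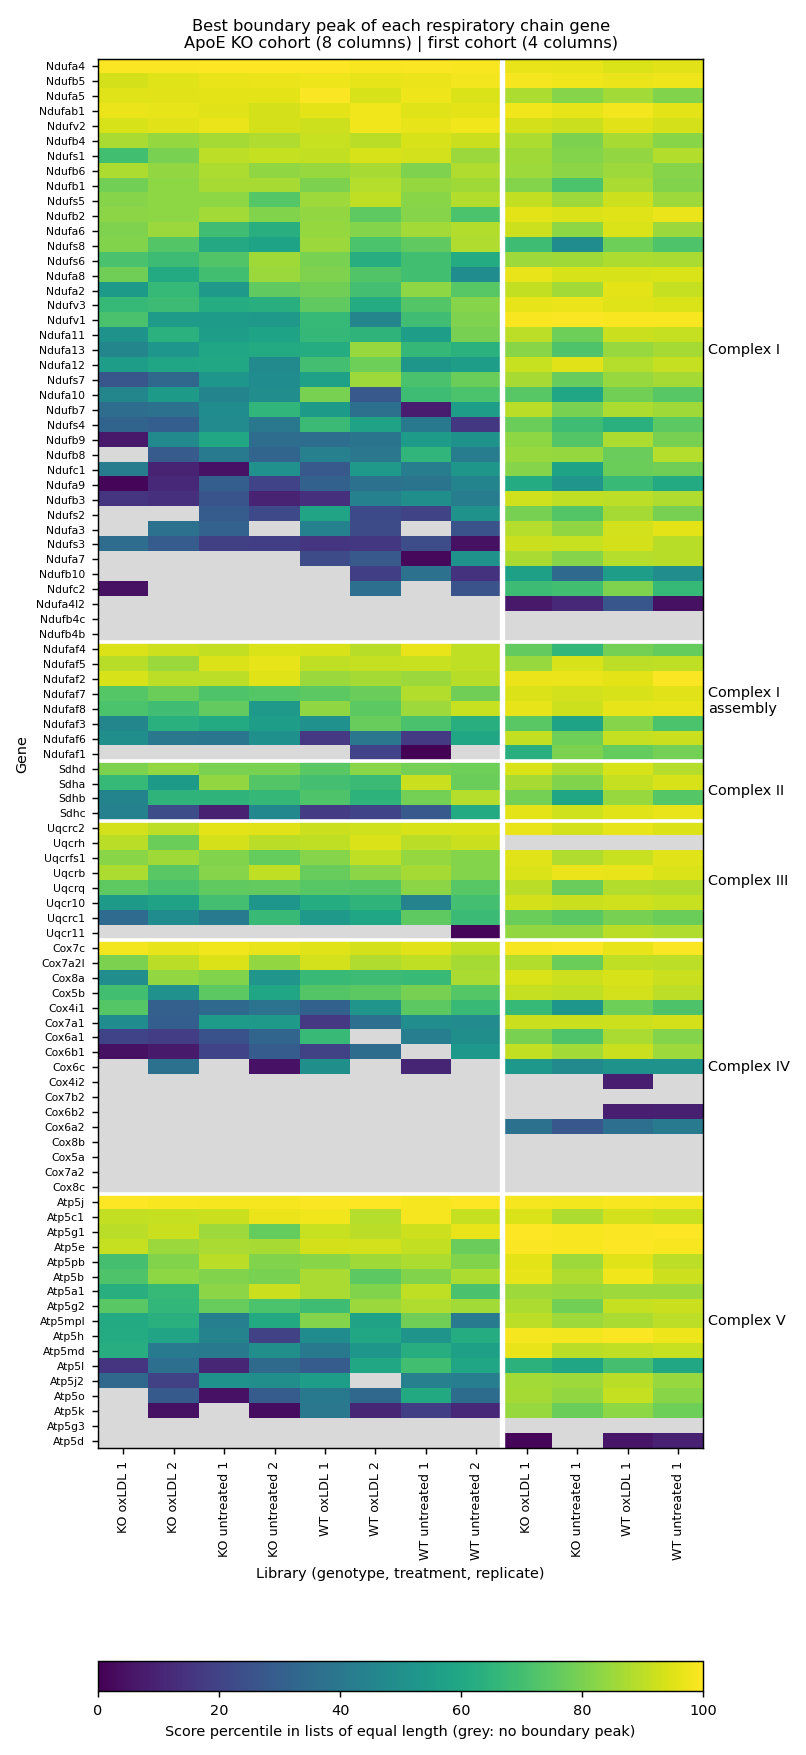
Score percentile in lists of equal length (colour) of each of the 93 genes (rows, by complex and by mean in the ApoE KO cohort) in each library (columns, KO left of WT in each cohort), with grey for no boundary peak. Ndufa4, Atp5j and Cox7c are bright across libraries, and grey rows gather in complex IV.

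The peaks sat at the start of the gene. Among members with a known strand, 96.8 to 98.5% of ApoE KO and 98.5 to 98.6% of first-cohort boundary peaks were at the start and not at the end, against 93.9 to 95.4% and 88.9 to 91.8% for all genes. Of these boundary peaks at the start, 60.7 to 75.4% had a summit within 100 bp of it at members in ApoE KO libraries. Over all genes with such a peak the share was 48.7 to 55.3%. Median peak width was similar, 550 to 920 bp for members and 612 to 883 bp for all genes.

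Many of these boundary peaks also lay near a neighbouring gene, at a boundary that could be its start or its end. Between 46.8 and 50.0% of members called in an ApoE KO library, and 43.0 to 44.0% in a first-cohort library, had a boundary peak that was also within 1 kb of another protein-coding gene's boundary. Over all genes this was 25.6 to 27.9% and 22.5 to 23.8%. Several partners have mitochondrial or ribosomal products, among them Mrpl47 beside Ndufb5, Mrpl36 beside Ndufs6, Timm8b beside Sdhd and Rps28 beside Ndufa7. Atp5j shared its peak with Gabpa, the DNA-binding subunit of GABP, in 12 of 12 libraries, and the summit lay 637 or 638 bp inside Atp5j in the ApoE KO cohort. A value at such a peak cannot be assigned to 1 of the neighbours.

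Within the promoter windows of the 75 members in the table, NRF1 matches were found in 19 (25.3%), against 7.39% of 16456 genes and 14.5% of the 6771 genes open in all 12 libraries. YY1 matches were found in 11 (14.7%), against 3.59% and 5.83%. ETS matches were found in 19 (25.3%), against 13.3% of all genes and 24.5% of the open ones. Mitochondrial ribosomal protein genes had NRF1 matches in 18.8%, YY1 in 17.4% and ETS in 37.7% of windows. Cytosolic ribosomal protein genes had 9.43%, 9.43% and 43.4%. YY1 and ETS matches were thus not particular to respiratory chain genes. An SP core (GGGCGG) occurred in 45.3% of member windows, against 50.2% of all and 73.8% of open windows, and CCAAT in 42.7%, against 42.3% and 45.9%. Both strands were searched, some matches can overlap, and the 5 cores were chosen after other spellings had been looked at. Among tested members, the KO minus WT difference had a median of -5.35 for the 18 with an NRF1 match and -4.001 for the 50 without. The medians with and without a match were -6.80 and -3.94 for YY1, -4.09 and -4.06 for ETS, -3.74 and -4.45 for SP and -4.74 and -3.80 for CCAAT, so the gap had no common direction over the 5 cores.

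Whether loss of Baf60a changed these promoters was asked by fitting all 12 libraries together, with cohort as a covariate, for 12002 genes with a peak in at least 3 equal-length lists, 83 members among them. No member was called between KO and WT (0 of 83, limma with Benjamini-Hochberg adjustment, lowest member adjusted p 0.310), and 0% of all genes were. At an unadjusted p under 0.05, 15 members had lower and 2 had higher values in KO cells, beside 11.7% and 1.3% of all genes. The median member difference was -4.06 percentile points, against -2.28 for all genes tested, and 67 of 83 members lay below 0 and 16 above, where 71.4% and 28.6% of all genes did. In full lists of unequal length the direction of both turned: 0.12 for members (41 of 84 below 0) and 1.37 for all genes. In ranks among genes the members' median was -0.36, against -0.03. In a fit of the ApoE KO cohort alone it was -6.04 (63 of 80 below 0), against -2.44 for the 10306 genes tested there. Without the 3 lists of that cohort that carry an L001 mark (KO with oxLDL replicate 1 and both WT untreated) it was -2.64, against -1.94 for all genes. By treatment, the members' median KO minus WT difference was -4.96 with oxLDL and -2.83 untreated in the ApoE KO cohort, and -0.41 with oxLDL and -2.31 untreated in the first cohort. All genes tested had -0.54 with oxLDL and -0.11 untreated in the ApoE KO cohort, and -1.08 and -3.33 in the first cohort. Members thus lay further below 0 than all genes in the ApoE KO cohort, and less far below 0 in the first cohort. At most 9212 genes had a boundary peak in an ApoE KO equal-length list, however. Genes without a peak in any library compared differ by 0 there, so the medians in that cohort are not like for like. Among genes with a peak in all 12 equal-length lists, the KO minus WT median over both cohorts was -3.80 for 65 members and -2.33 for all 7444 genes.

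The smallest p among the lower values belonged to Ndufa9 (mm10, chr6:126821863-126849144), a complex I subunit at the junction of its 2 arms. With oxLDL in the ApoE KO cohort, its percentile was 1.43 and 11.01 in KO cells, against 31.0 and 37.3 in WT cells. Untreated, it was 29.7 and 20.1 in KO cells, against 38.5 and 45.1 in WT cells. First-cohort values were 61.7 in KO and 67.6 in WT cells with oxLDL, and 52.1 in KO and 61.0 in WT cells untreated. No KO value reached the WT values of the same cohort and treatment, and the estimate was -17.4 points (SE 5.54, limma adjusted p 0.310). It was -3.03 in full lists (adjusted p 0.915), -2.34 in ranks among genes and -9.05 without the 3 L001 lists.

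Ndufs7 and Ndufs8 encode core subunits that carry iron-sulphur clusters near the ubiquinone site of complex I. Ndufs7 had 26.8 and 33.9 in KO cells with oxLDL, against 57.4 and 85.5 in WT cells with oxLDL, in the ApoE KO cohort. Untreated cells of that cohort had 52.6 and 48.6 (KO) and 71.2 and 77.4 (WT). The first cohort did not keep this order, with 86.9 in KO and 84.4 in WT cells with oxLDL and 76.8 in KO and 86.6 in WT cells untreated. The Ndufs7 estimate was -22.8 (SE 7.43, limma adjusted p 0.310), and it was -11.7 in full lists, -7.56 in ranks among genes and -14.1 without the L001 lists. For Ndufs8 the libraries overlapped with oxLDL in the ApoE KO cohort, 81.2 and 73.2 in KO against 84.8 and 71.5 in WT cells, and were apart untreated, 60.4 and 57.9 in KO against 75.8 and 88.1 in WT cells. Its estimate was -13.4 (SE 4.38, limma adjusted p 0.310), against -4.75 in full lists and -5.17 in ranks among genes.

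Positive estimates were smaller. In the ApoE KO cohort, Cox7c had 98.2 and 96.2 in KO against 95.3 and 93.5 in WT cells with oxLDL, and 98.0 and 96.5 in KO against 95.6 and 90.5 in WT cells untreated. The first cohort had 98.8 in KO and 96.4 in WT cells with oxLDL, and 99.2 in KO and 99.5 in WT cells untreated. KO values were thus above WT values in 3 of the 4 pairs, and the estimate was 2.67 (limma adjusted p 0.350). It was 0.94 without the L001 lists and 1.67 without WT untreated replicate 2 of the ApoE KO cohort alone. Ndufaf2, a chaperone of late complex I assembly, had 3.78 (adjusted p 0.356) and Ndufs3 7.27 (adjusted p 0.529, both limma). Without the L001 lists these were 1.46 and 4.35, and the Ndufs3 estimate was 14.3 in full lists, 4.18 in ranks among genes and 4.39 without WT untreated replicate 2 of the ApoE KO cohort. That for Ndufaf2 was 5.93 in the ApoE KO cohort alone. Within complex II the estimates were -7.68 for Sdha, -13.9 for Sdhb, -1.14 for Sdhc and 1.499 for Sdhd, none past the threshold. In each of the 4 pairs of cohort and treatment, KO values were all below the WT values at 4 members. These were Ndufa9, Ndufa13, Uqcrc1 and Ndufa7, the last 3 named after their values were seen. The same held at 5.67% of all genes tested, while KO values were all above at 0 members, beside 0.433% of all genes. The Ndufa13 peak was shared with Tssk6 in 12 of 12 libraries, and the Ndufa7 peak with Rps28 in 11 of 11. At Ndufa7 every KO value of the ApoE KO cohort was 0, which stands for no peak in the shortened list. WT values there were 2.19 to 50.9. At the promoter window of Ndufa13 the order failed in the ApoE KO cohort. With oxLDL there, KO values were 11.9 and 46.2, and WT values 0 and 48.6. The untreated values overlapped too, while first-cohort KO values stayed below the WT values. No member had a boundary peak in at least 5 of 6 libraries of 1 genotype and at most 1 of 6 of the other, where 0.0242% of all genes did in favour of KO and 0% in favour of WT.

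**Figure D4:**
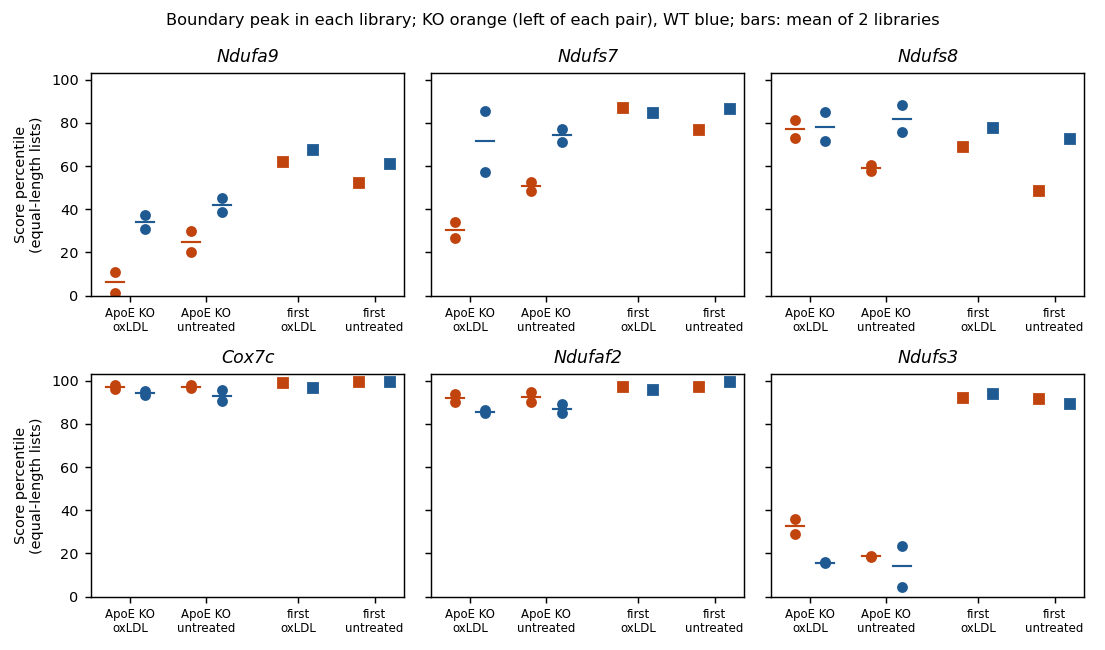
Score percentile in equal-length lists (y axis) of the 3 members with the smallest p in each direction, by cohort and treatment (x axis), with KO in orange left of WT in blue, 1 point per library and a bar at the mean of 2. Ndufa9 is lower in KO in each pair, while the KO and WT points of Cox7c and Ndufaf2 all lie above 84.

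oxLDL gave no call either (0 of 83 members and 0% of all genes, lowest member adjusted p 0.747, limma). At an unadjusted p under 0.05, 2 members were higher and 2 lower with oxLDL, beside 3.79% and 1.31% of all genes. The members' median difference was -0.29, against 0.53 for all genes, and 36 of 83 lay above and 47 below 0, beside 55.8% and 44.2% of all genes. Its sign depended on the scaling and on the libraries: -4.29 in full lists, where all genes had -3.68, 1.25 without the 3 L001 lists and -1.33 without the first-cohort KO library with oxLDL, where all genes had 1.165 and 0.12. The smallest p was that of Ndufaf5, the assembly factor printed above. In ApoE KO cells it had 89.4 and 85.1 (KO with oxLDL) against 94.8 and 96.4 (KO untreated), and 90.3 and 91.4 (WT with oxLDL) against 91.4 and 90.5 (WT untreated). First-cohort values were 84.8 with oxLDL against 93.8 untreated in KO cells, and 89.9 against 90.5 in WT cells. The KO libraries with oxLDL were thus below the untreated ones in both cohorts, and the WT libraries nearly met. The estimate was -4.44 (SE 1.18, limma adjusted p 0.747). Next were Sdha (-10.6) and the muscle isoform Cox7a1 (-12.6), and in the other direction Ndufab1 (1.90), Ndufa6 (7.11), a subunit that docks the acyl carrier protein, and Ndufs8 (9.05), all with a limma adjusted p of 0.747. In full lists Ndufab1 had 0.90, Ndufa6 2.49 and Ndufs8 1.36, and in ranks among genes Cox7a1 had -4.93 and Ndufs8 3.64. Ndufa6 had 12.4 without the L001 lists and 4.57 without the first-cohort WT untreated library, and Sdha -16.7 in the ApoE KO cohort alone. At 0 members were the oxLDL and untreated libraries fully apart in all 4 pairs of cohort and genotype, beside 1.02% of all genes for higher and 0.283% for lower values. No member gained or lost its peak with oxLDL by the 5 of 6 against 1 of 6 count, beside 0% and 0.00968% of all genes.

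**Figure D5:**
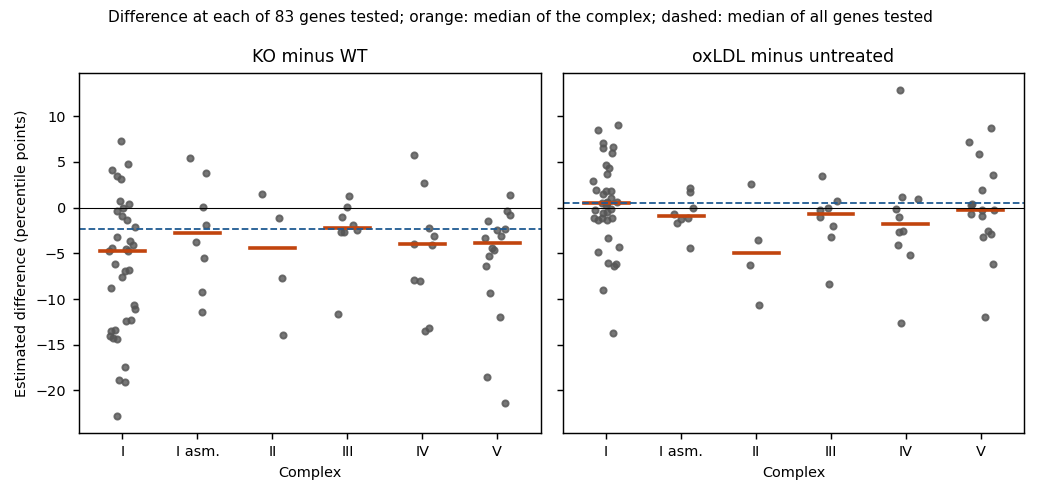
Estimated difference in percentile points (y axis) at each of the 83 tested members (points) by complex (x axis), KO minus WT on the left and oxLDL minus untreated on the right, with the median of the complex in orange and that of all genes tested dashed. The medians over all members are -4.06 and -0.29, and no member passed the adjusted threshold.

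The genotype difference with oxLDL was also set against that in untreated cells. No member was called for this (0 of 83, 0% of all genes, lowest member adjusted p 0.992, limma). At an unadjusted p under 0.05, 3 members were positive and 1 negative, beside 2.26% and 1.34% of all genes. The median was 0.36 for members and 0.64 for all genes, with 47 members above and 36 below 0, beside 54.5% and 45.5% of all genes. Positive estimates with the smallest p were those of Ndufa6 (13.9), Atp5g1 (9.39), a c subunit gene, and Ndufs8 (19.5). The negative ones were Ndufaf5 (-8.34), Atp5a1 (-16.7), the catalytic-head alpha subunit, and Ndufs4 (-25.1), an accessory subunit. Each had a limma adjusted p of 0.992. Without the L001 lists Ndufa6 had 4.70, Atp5g1 4.89 and Ndufs4 -5.51. In full lists Ndufaf5 had -4.99, Atp5a1 -9.67 and Ndufs4 -13.2, and in ranks among genes Ndufa6 had 6.87, Ndufs8 9.10, Atp5a1 -10.3 and Ndufs4 -6.86. The ApoE KO cohort alone gave 20.96 for Ndufa6, -25.6 for Atp5a1 and -47.5 for Ndufs4. Leaving out 1 library moved Atp5g1 to 5.56 (KO untreated replicate 2 of the ApoE KO cohort) and Ndufs4 to -15.6 (WT untreated replicate 2 of that cohort) or -37.99 (first-cohort WT with oxLDL).

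By complex, the median KO minus WT difference was -4.74 for complex I (30 of 37 tested members below 0), -2.82 for its assembly factors (5 of 8), -4.41 for complex II (3 of 4), -2.21 for complex III (6 of 8), -4.02 for complex IV (8 of 10) and -3.92 for complex V (15 of 16). With oxLDL the medians ran from -4.92 in complex II to 0.52 in complex I. A list of 48 other genes of the chain (assembly factors of complexes II to V, cytochrome c and partners) had 43 (89.6%) open in all 12 libraries. It gave a KO median of -3.52, with 35 of 47 tested below 0 and 0 called in either direction, and an oxLDL median of -0.25. Mitochondrial ribosomal protein genes had a KO median of -2.85 (53 of 74 below 0) and cytosolic ones -6.57 (64 of 71 below 0), again with 0 called.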

How the data were processed

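ATAC-seq peak lists of 12 BMDM libraries in 8 groups were used. The deposited lists were called with MACS2 or MACS3 after Bowtie2 2.3.4.1 on mm10, per the submitters' processing notes. SAMtools 1.2, bedtools 2.28.0, Picard, FastQC, Trim Galore and cutadapt are also named there, without the role of each, and the sources used here state neither a shift for the transposase nor a filter. Each list is 1 library, with no pooling visible. The authors' score column ranks peaks. The ApoE KO lists also hold the deposited fold enrichment (a ratio) and −log10 p and q values, of which only the score, fold enrichment and summit were used. The deposited lists hold no read counts, so depth is unknown and no counting interval is given. A deeper library gives more peaks, which lists of equal length offset in part.

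Genes, spans and promoter sequences came from RefSeq tables of GRCm38.p6 (20661 autosomal protein-coding genes, 16456 with a promoter). Strand was known only for genes with a promoter, 75 of 93 members. Percentiles were tested with limma 3.58.1 (empirical Bayes with trend) in R 4.3.3, with 4 genotype-by-treatment groups and cohort, for genes with a peak in at least 3 of 12 equal-length lists, Benjamini-Hochberg adjusted over all genes at 0.05. The code was tested on simulated data. Peaks were assigned to genes with pandas 2.3.3 and numpy 2.4.6 under Python 3.11.15, and plots were drawn with matplotlib 3.10.9. Alternatives were full lists, ranks among genes, a 500 bp window, any overlapping base, a score minimum of 50 (for the count of genes with a peak), no filter or only genes with a peak in all 12 lists, array weights, 1 cohort, a replicate block and leaving out libraries. The promoter window was added after seeing the data.

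Members and lists were chosen with earlier results of these data known. Named genes were the Sdh genes, members with no boundary peak, up to 12 members called in fewer than 12 libraries, the highest and lowest member per complex and the 3 smallest p per contrast and direction.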

Additional observations from a re-analysis of the deposited data

How the results depend on the processing

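No member was called in any contrast under the alternatives run for the contrasts, and no result turned direction past the threshold. The score minimum of 50 was run only for the count of members with a peak in all 12 libraries, which it put at 59. Over all genes, leaving out 1 library gave 0 to 3 calls for KO minus WT, 0 to 2 for oxLDL and 0 to 2 for the interaction, with calls appearing when the first-cohort WT untreated, KO oxLDL or WT oxLDL library, or ApoE KO cohort KO untreated replicate 1, was left out. The ApoE KO cohort alone gave 2 for the interaction. The members' median for KO minus WT was 0.12 in full lists, -0.36 in ranks among genes, -6.04 in the ApoE KO cohort alone and -2.64 without the 3 L001 libraries, and -4.65 to -3.15 when 1 library was left out. That for oxLDL was -4.29 in full lists, -2.40 in the ApoE KO cohort alone and 1.25 without the L001 libraries, and -1.33 to 0.46 when 1 library was left out. That for the interaction was 2.04 in full lists and -1.73 (without the first-cohort KO oxLDL library) to 1.44 (without the first-cohort WT untreated library). The level of the members in the ApoE KO cohort (71.5, mean over libraries of the median) was 77.6 in full lists. The cause of these shifts was not tested. With 1 library left out, 69 to 72 members had a peak in all others.

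No pairing by replicate number was seen in the ApoE KO cohort, where deviations of same-numbered libraries correlated at -0.10 to 0.04. With 2 libraries per group, which deviate as mirror images, this check cannot exclude pairing. With a replicate block, 0 members and 0 genes were called in each contrast and the median for KO minus WT was -4.06. Depth is unknown, and short lists limit the ApoE KO cohort most at weak peaks. No group held enough libraries for a test of outlying samples.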
